A study of Mus musculus with 6 samples.

Results

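The Foxo transcription factors and the kinases and phosphatases that govern them through the PI3K, Akt and mTOR pathway were read in haematopoietic stem cells (HSC) from Lig4mut mice and wild-type (WT) controls. The members are Foxo1, Foxo3, Foxo4, Tsc1, Tsc2, Inpp5d, Akt1, Mtor and Stk11. They were taken as every probe set whose platform annotation names exactly 1 of these 9 genes, which gave 24 probe sets of the 34945 that name a single gene on the array. A further probe set that names Foxo3 together with a predicted gene was left out. Lig4 encodes the DNA ligase that seals double-strand breaks in end joining, and the study asked what it does for the maintenance of HSC. The cells were CD150+ CD48- KSL cells sorted from bone marrow of mice aged 6 to 8 weeks. Lig4mut mice and WT (Lig4+/+) controls came from intercrosses of Lig4mut/+ parents, with 3 arrays per genotype described as biological replicates. The labels used here do not give the nature of the mutation, any treatment, or whether a replicate was 1 mouse or a pool.

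Growth factors activate PI3K, which makes a membrane lipid that recruits the kinase Akt. Akt phosphorylates Foxo factors, which then leave the nucleus, and it inactivates the Tsc1 and Tsc2 complex, which otherwise holds the mTOR kinase in check. In HSC, Foxo factors are known for resistance to oxidative stress and for quiescence, and loss of Tsc1, Inpp5d or Stk11 is known to disturb HSC upkeep.

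Each value is a log2 expression level after quantile normalization of the deposited values, and each difference is Lig4mut minus WT on that scale, with its standard error (SE) from limma. Over the single-gene probe sets the median deposited level was 6.66 to 6.70 on WT arrays and 6.32 to 6.46 on Lig4mut arrays, and between 4.75% and 5.50% of them were at the floor of 3 on an array. None of the 24 member probe sets was at the floor on any array. Lig4 itself was at 7.53, 6.66 and 7.63 in WT and at 4.97, 3.16 and 3.10 in Lig4mut. Of the genes that mark HSC, Slamf1, which encodes CD150, was between 8.89 and 10.71 on the 6 arrays, while Cd48 was between 5.04 and 7.31. Kit was lower on every Lig4mut array, at 10.95, 10.70 and 10.73 in WT and at 9.62, 9.56 and 10.35 in Lig4mut. The mean level of 16 HSC markers was 10.11 to 10.36 in WT arrays and 9.41 to 10.16 in Lig4mut arrays. Of the 16, 9 were lower in Lig4mut and 7 higher, with a median difference of -0.53, where that of all genes was 0.18. At an unadjusted p under 0.05 (limma), 3 were lower and 0 higher, where 4.02% and 15.8% of all genes were. The means of this list lay above the array's median level of 6.56. Of all probe sets above that level, 8.21% were higher at that p, and their median difference was -0.054. Among markers of other cells, the macrophage and dendritic cell list was higher in Lig4mut for 13 of 16 genes, with a mean level of 6.21 to 6.63 in WT arrays and 7.04 to 7.44 in Lig4mut arrays. The B cell list was higher for 13 of 13, with a mean level of 5.51 to 5.68 against 5.94 to 6.37, and the endothelial and stromal list for 17 of 18, with 6.87 to 8.57 against 7.96 to 9.12. The T and NK cell list was higher for 11 of 11, with 5.02 to 5.49 against 5.46 to 6.20, and the megakaryocyte list for 8 of 11, with 7.09 to 7.57 against 7.17 to 7.90. The erythroid list was higher for 5 of 9 and lower for 4, with 7.21 to 7.49 against 7.19 to 7.39. Its median difference was 0.073. Of all genes, 61.5% had a higher value in Lig4mut on their brightest probe set. The granulocyte list stood at 10.32 in Lig4mut replicate 2 and between 6.15 and 8.14 on the other 5 arrays. Of its 14 genes, 9 had a higher and 5 a lower mean in Lig4mut. Among the lower ones, S100a9 was at 11.26 to 11.69 in WT and at 6.00, 13.14 and 6.49 in Lig4mut. No gene of these lists was at the floor on all arrays, and their part in the results that follow was not tested. In sorted populations, fewer cells of a type and less RNA per cell cannot be told apart.

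No member changed past the threshold. Of the 24 probe sets, 0 had an adjusted p under 0.05 (limma, Benjamini-Hochberg over 34945 probe sets), and over the whole array 1 did, a share of 0.00286%. At an unadjusted p under 0.05 there were 4 member probe sets higher in Lig4mut, where 12.2% of all probe sets were, and 2 lower, where 5.3% were. In percent these are 16.7% and 8.33% of the members, near the background in a set of this size. The same 6 probe sets were the ones whose 3 WT and 3 Lig4mut arrays did not overlap, 25% of the members against 23.8% of all probe sets, and the 2 of these that lay lower compare with 7.12%. The higher probe sets belonged to Foxo1, Mtor, Tsc1 and Stk11, and the lower ones both to Foxo3.

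**Figure D1:**
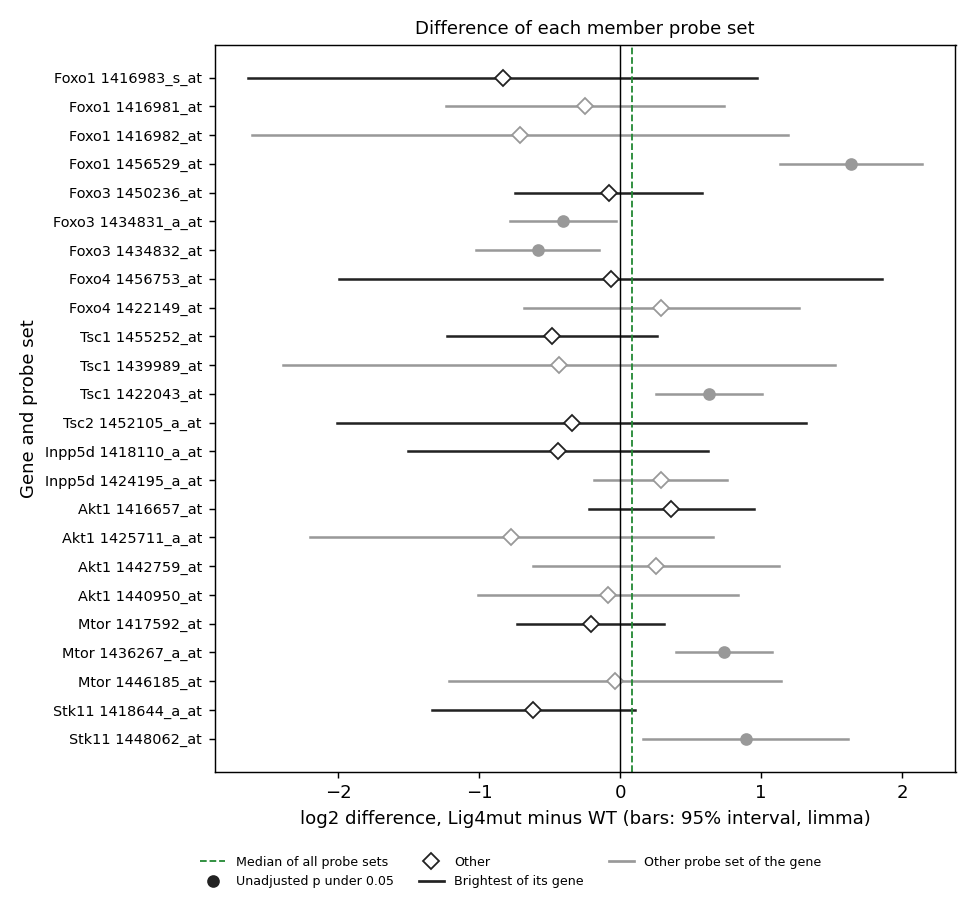
Difference between Lig4mut and WT (log2, horizontal axis) for each of the 24 member probe sets (vertical axis), with 95% intervals from limma. Black marks the brightest probe set of each gene and grey its other probe sets. Filled circles mark an unadjusted p under 0.05, and the dashed line is the median of all probe sets at 0.082. The 6 filled circles, 4 to the right and 2 to the left of 0, are all grey.

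Foxo3, the family member best known for holding HSC in quiescence, had 3 probe sets, all with lower values in Lig4mut. Probe set 1434832_at was at 11.08, 10.71 and 10.84 in WT and at 10.30, 10.08 and 10.48 in Lig4mut. Every Lig4mut array lay below every WT array, and the difference was -0.59 ± 0.17 (SE, n = 3 per genotype), or 1.50-fold (limma, adjusted p = 0.201). Probe set 1434831_a_at was at 10.92, 10.84 and 10.77 in WT and at 10.26, 10.66 and 10.39 in Lig4mut, again without overlap. Its difference was -0.41 ± 0.15, or 1.33-fold (limma, adjusted p = 0.258).

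The brightest Foxo3 probe set, 1450236_at, did not show this separation. It was at 12.10, 11.75 and 11.53 in WT and at 11.88, 11.97 and 11.29 in Lig4mut, with the genotypes interleaved. The difference was -0.082 ± 0.26, and its 95% interval ran from -0.75 to 0.58, which includes the differences of the other probe sets. The mean over the 3 probe sets differed by -0.36 ± 0.14. How far below 0 these values lay depended on the scaling, since with arrays centred on their medians 1434832_at was at -0.24, 1434831_a_at at -0.066 and 1450236_at at 0.27. In that scaling the median of all probe sets was 0.28 higher in Lig4mut, and relative to it 1434832_at was at -0.52 and 1434831_a_at at -0.34.

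**Figure D2:**
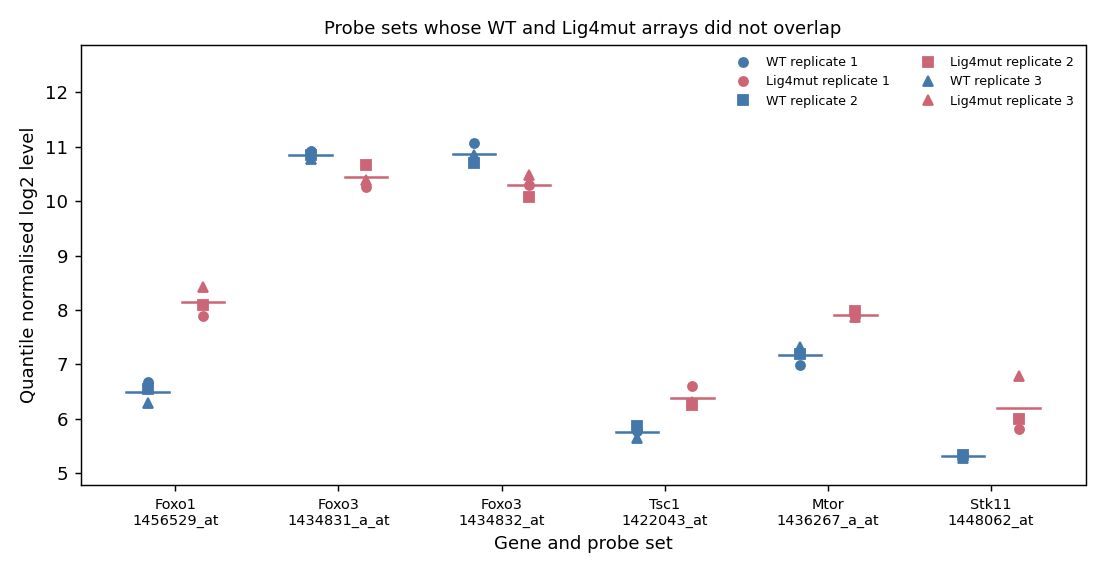
Quantile normalised log2 level (vertical axis) on each array for the 6 member probe sets whose genotypes did not overlap (horizontal axis). Symbols mark replicate numbers and horizontal bars group means. Foxo1 1456529_at shows the widest gap, with WT between 6.28 and 6.68 and Lig4mut between 7.90 and 8.43.

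Foxo1, the factor that also drives early B cell development, gave opposite values on different probe sets. Probe set 1456529_at was at 6.68, 6.54 and 6.28 in WT and at 7.90, 8.09 and 8.43 in Lig4mut. All Lig4mut arrays lay above all WT arrays, by 1.64 ± 0.20 (SE, n = 3 per genotype), or 3.11-fold (limma, adjusted p = 0.118). This was the member probe set with the smallest p, and its difference lay between 1.42 and 1.76 under the 12 alternatives it was computed in.

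The brightest Foxo1 probe set, 1416983_s_at, ran the other way. It was at 9.37, 10.78 and 10.78 in WT and at 9.15, 8.59 and 10.69 in Lig4mut. WT replicate 1 lay among the Lig4mut arrays, and the difference was -0.83 ± 0.70, with a 95% interval from -2.64 to 0.97. It was -1.44 without Lig4mut replicate 3 and -0.39 without Lig4mut replicate 2. In the array maker's naming, the suffix _s_at marks probes that can match transcripts of more than 1 gene, so this probe set is uncertain. The remaining 2 Foxo1 probe sets, 1416982_at and 1416981_at, differed by -0.71 ± 0.74 and -0.25 ± 0.38, with overlapping genotypes. The files do not place the probes on the transcripts, and the mean over the 4 probe sets differed by -0.039 ± 0.35. Whether the probe sets differ from each other in their response was not tested.

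Foxo4, the X-linked family member, varied far more in Lig4mut than in WT on its brighter probe set. Probe set 1456753_at was at 8.89, 8.95 and 9.15 in WT and at 7.33, 10.14 and 9.31 in Lig4mut. The Lig4mut arrays thus lay on both sides of WT, with an SD of 1.44 against 0.14, and the difference of -0.067 ± 0.75 was 0.73 without Lig4mut replicate 1. Xist, the RNA of the inactive X chromosome, was at 12.52 in WT replicate 3 and 12.33 in Lig4mut replicate 2 and between 4.84 and 5.82 on the other 4 arrays. Arrays with high and with low Xist thus occurred in both genotypes. The part of this in the Foxo4 values, and in those of the other members, was not tested. The dim probe set 1422149_at was at 5.00, 4.44 and 4.36 in WT and at 4.48, 5.61 and 4.58 in Lig4mut, a difference of 0.29 ± 0.38. Lig4mut replicate 2 was the highest array on both Foxo4 probe sets.

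**Figure D3:**
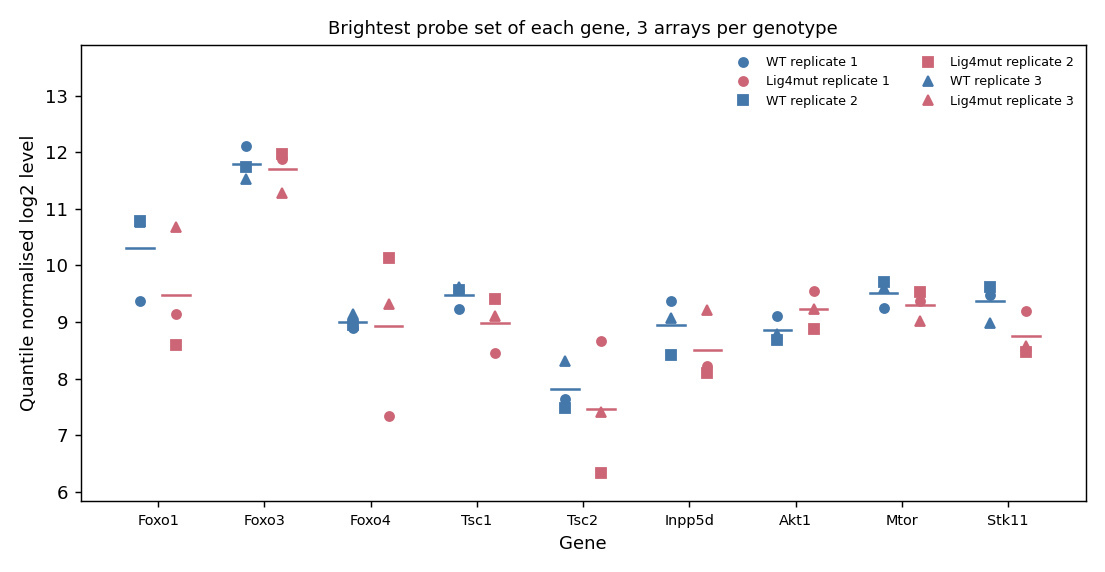
Quantile normalised log2 level (vertical axis) on each array for the brightest probe set of each of the 9 genes (horizontal axis), with symbols for replicate numbers and bars for group means. Levels are comparable between arrays within a gene and not between genes. The genotypes overlap in all 9, and Foxo4 and Tsc2 have the widest Lig4mut spread, from 7.33 to 10.14 and from 6.33 to 8.66.

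Inpp5d encodes SHIP1, a phosphatase that removes the lipid made by PI3K in blood cells. Its brightest probe set, 1418110_a_at, was at 9.38, 8.42 and 9.06 in WT and at 8.21, 8.11 and 9.21 in Lig4mut, a difference of -0.44 ± 0.41. The other, 1424195_a_at, was at 8.65, 8.58 and 8.38 in WT and at 8.92, 8.52 and 9.04 in Lig4mut, a difference of 0.29 ± 0.18. The genotypes overlapped on both, and the values pointed in opposite directions.

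Akt1 encodes the kinase that relays the PI3K signal. Its probe set with the highest mean level, 1416657_at, was at 9.11, 8.69 and 8.78 in WT and at 9.56, 8.88 and 9.24 in Lig4mut. With a difference of 0.36 ± 0.23 it was the 1 gene of the 9 whose brightest probe set had a higher value in Lig4mut, and WT replicate 1 lay between the Lig4mut arrays. Probe set 1425711_a_at was at 9.52, 9.35 and 8.57 in WT and at 8.02, 7.66 and 9.44 in Lig4mut, so that replicate 3 of each genotype lay apart from its group, and it differed by -0.77 ± 0.56. The other probe sets, 1442759_at and 1440950_at, differed by 0.25 ± 0.34 and -0.088 ± 0.36. The mean over the 4 differed by -0.061 ± 0.17.

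Foxo factors bind a short DNA element, searched here as GTAAACA and, on the other strand, TGTTTAC, in RefSeq promoter windows of GRCm38.p6 that run from 250 bases before to 50 after a gene's start. Of the 9 members, 8 had a window, 9 windows in all, and the element was present in 2 of them, a window of Akt1 and that of Stk11. It was present in 3.65% of all 32851 windows. These are the members whose windows hold the element, and they are shown for that reason, with the element in capitals. The Akt1 stretch is the 250 bases before one of its annotated starts, chr12:112674885.0-112675134.0 on the minus strand, and the Stk11 stretch is the 30 bases around the match, past the start, chr10:80115800.0-80115829.0 on the plus strand.
Akt1: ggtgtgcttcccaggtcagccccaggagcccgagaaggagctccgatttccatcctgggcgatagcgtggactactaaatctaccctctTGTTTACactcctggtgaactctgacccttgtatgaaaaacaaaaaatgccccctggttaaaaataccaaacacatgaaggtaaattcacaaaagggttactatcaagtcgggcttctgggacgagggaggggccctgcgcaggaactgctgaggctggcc
Stk11: ggcgcagggcgGTAAACAagatggcggcgg
A match describes these letters only, and binding was not measured. The brightest probe sets of the genes had values in opposite directions, 0.36 ± 0.23 for Akt1 and -0.62 ± 0.28 for Stk11.

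Tsc1 and Tsc2 form the complex that restrains mTOR by switching off the small GTPase Rheb. The brightest Tsc1 probe set, 1455252_at, was at 9.23, 9.57 and 9.62 in WT and at 8.45, 9.41 and 9.11 in Lig4mut. Lig4mut replicate 2 lay within the WT range, and the difference of -0.49 ± 0.29 had a 95% interval from -1.23 to 0.26. The dim probe set 1422043_at was at 5.77, 5.86 and 5.64 in WT and at 6.60, 6.26 and 6.30 in Lig4mut. Here all Lig4mut arrays lay above WT, by 0.63 ± 0.15 or 1.55-fold (limma, adjusted p = 0.158), and by 0.31 ± 0.17 in the values as deposited.

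The remaining Tsc1 probe set, 1439989_at, showed how far single Lig4mut arrays can stand apart. It was at 8.08, 7.77 and 7.95 in WT and at 7.58, 8.92 and 6.00 in Lig4mut. The difference of -0.43 ± 0.76 was 0.32 without Lig4mut replicate 3. Tsc2 has a single probe set, 1452105_a_at, at 7.65, 7.49 and 8.31 in WT and at 8.66, 6.33 and 7.41 in Lig4mut. The Lig4mut arrays spanned the WT range on both sides, and the difference of -0.34 ± 0.65 was 0.23 without Lig4mut replicate 2.

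Mtor encodes the kinase at the centre of both mTOR complexes. Its brightest probe set, 1417592_at, was at 9.25, 9.70 and 9.61 in WT and at 9.37, 9.54 and 9.02 in Lig4mut, a difference of -0.21 ± 0.20 whose 95% interval ran from -0.73 to 0.31. Probe set 1436267_a_at, at 6.98, 7.20 and 7.32 in WT, was at 7.86, 7.97 and 7.87 in Lig4mut. It separated the genotypes by 0.74 ± 0.13, or 1.67-fold (limma, adjusted p = 0.132), and by 0.53 ± 0.12 in the values as deposited. The intervals of these probe sets did not meet, since the lower bound of 1436267_a_at was 0.40. The dimmest, 1446185_at, differed by -0.036 ± 0.46.

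Stk11 encodes LKB1, the kinase that activates AMPK and through it restrains mTOR when energy is short. Its brighter probe set, 1418644_a_at, was at 9.48, 9.62 and 8.99 in WT and at 9.20, 8.48 and 8.57 in Lig4mut, a difference of -0.62 ± 0.28 (limma, adjusted p = 0.347). Only Lig4mut replicate 1 reached into the WT range. The dim probe set 1448062_at was at 5.33, 5.32 and 5.28 in WT and at 5.82, 6.00 and 6.79 in Lig4mut. All Lig4mut arrays lay above WT, by 0.89 ± 0.28 or 1.86-fold (limma, adjusted p = 0.221), and by 0.58 ± 0.27 in the values as deposited. The values of this gene therefore pointed down where the signal was bright and up where it was dim.

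Of the 4 members higher at an unadjusted p under 0.05, Tsc1 1422043_at and Stk11 1448062_at lay below the array's median level of 6.56, and Foxo1 1456529_at and Mtor 1436267_a_at lay above it, at mean levels of 7.32 and 7.53. Over the whole array dim probe sets more often had higher values in Lig4mut. Below the median level of 6.56, 63.9% of all probe sets had a difference above 0 and 16.1% were higher at an unadjusted p under 0.05, against 46.8% and 8.21% above it. In the values as deposited, 5.01% of the dim and 5.65% of the bright probe sets were higher at that level. Of the members 2 of 24 were then higher, where 5.33% of all probe sets were: Foxo1 1456529_at and Mtor 1436267_a_at.

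Over the alternatives in which they were computed, Foxo1 1456529_at and Mtor 1436267_a_at kept an unadjusted p under 0.05 in 12 of 12, Tsc1 1422043_at in 9 of 12, Foxo3 1434832_at in 8 of 12, Stk11 1448062_at in 5 of 11 and Foxo3 1434831_a_at in 1 of 12.

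**Figure D4:**
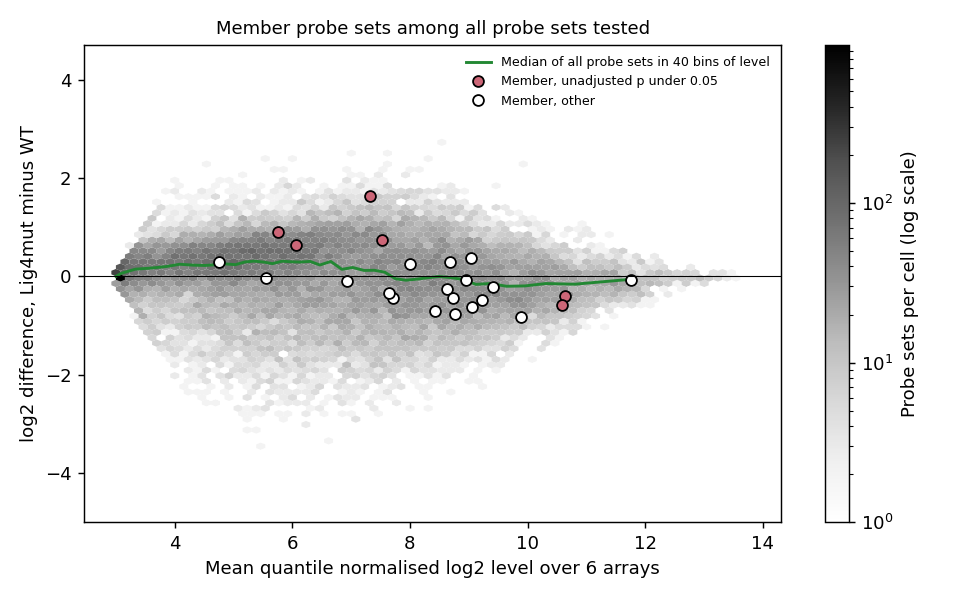
Difference between Lig4mut and WT (log2, vertical axis) against mean level over the 6 arrays (log2, horizontal axis) for all 34945 probe sets (grey, darker where denser on a log scale) and the 24 member probe sets (circles). The green line is the median of all probe sets in 40 bins of level. It lies above 0 at low levels and near or below 0 at high levels. Of the 4 members higher at an unadjusted p under 0.05, 2 lie below the median level of 6.56 and 2 above it, and the 3 Foxo3 probe sets are the brightest members.

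On the brightest probe set of each gene, 8 of 9 had a lower value in Lig4mut, with a median of -0.34, and none reached an unadjusted p under 0.05, where 19.8% of brightest probe sets over all genes did. Over all genes, 61.5% of brightest probe sets had a higher value. All 9 member probe sets lay above the median level of 6.56, where 46.8% of all probe sets had a difference above 0. The median difference there was -0.054. Of the 9, the count below 0 was 8 in the values as deposited, 5 with arrays centred on their medians and 6 with cyclic loess. The scalings differ in the median of all probe sets. Below that median the count was 8 after quantile normalization, 8 as deposited, 8 with arrays centred on their medians and 6 with cyclic loess. Spread between arrays was larger in Lig4mut on 20 of the 24 member probe sets, with a median SD of 0.43 against 0.23 in WT. Over all probe sets it was larger on 23822 of 34945, and the medians were 0.48 and 0.31. Above the median level of 6.56 it was larger on 13286 of 17473 probe sets and on 17 of the 20 members there. The members thus varied more in Lig4mut, as most probe sets did.

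The profiles most like those of the 3 members with the smallest p were sought among 16314 other genes, by the root mean square difference of the log2 profiles over the 6 arrays after each was centred on its mean. For Foxo1 1456529_at these were Zbtb26 (0.169), Dact2 (0.187) and Eif2ak3 (0.198). For Mtor 1436267_a_at they were Ppp1r35 (0.0405), Dazl (0.0532) and Psca (0.0633), and for Tsc1 1422043_at Fam183b (0.0396), Krt17 (0.0443) and Gk2 (0.0607). Dazl, a germ cell gene, was at 3.68 to 4.08 in WT and at 4.52 to 4.63 in Lig4mut, and Krt17, a keratin of skin, was at 3.74 to 3.86 and at 4.35 to 4.63, both close to the floor of the array.

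The other genes of the pathway, 174 measured in 8 lists and each counted once, also held no gene past the adjusted threshold. At an unadjusted p under 0.05 there were 11 higher and 13 lower, 6.32% and 7.47%, against 15.8% and 4.02% of all genes. Their median difference was -0.11, where that of all genes was 0.18. The lists were brighter, with mean levels of 7.75 to 10.38 on single arrays, against 6.99 to 7.13 for all genes. Above the array's median level of 6.56, 8.21% of all probe sets were higher at that p, and the median difference was -0.054. The part of level in these contrasts was not tested. In the values as deposited the counts were 7 and 12, or 4.02% and 6.9%, against 6.94% and 5.38% of all genes, and with arrays centred on their medians 18 and 7, or 10.3% and 4.02% against 18.2% and 2.47%. The median difference was 0.18 with that centring, where 105 of the 174 had higher values, and that of all genes was 0.33. The genes named below are those of each list with the smallest p, and they are given as values (limma, adjusted p between 0.118 and 0.494).

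In the positive arm of PI3K and Akt, 15 of 20 genes had lower values, with a median of -0.44, and 2 were higher and 2 lower at an unadjusted p under 0.05. Pik3cb, a catalytic subunit of PI3K, was at 6.07, 5.88 and 5.38 in WT and at 4.39, 4.42 and 5.22 in Lig4mut (-1.10 ± 0.32). Irs1, the adaptor of the insulin receptor, was at 3.54, 3.54 and 3.77 in WT and at 4.68, 4.89 and 4.50 in Lig4mut (1.07 ± 0.15), near the floor in WT. Pik3r2, a regulatory subunit, differed by 0.64 ± 0.19 and the adaptor gene Gab2 by -0.62 ± 0.24, which was -0.0074 when its 3 probe sets were averaged.

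Among lipid phosphatases and other brakes on Akt, 10 of 16 had lower values and 2 were lower at an unadjusted p under 0.05. Phlpp1, whose product dephosphorylates Akt, was at 8.08, 7.79 and 8.66 in WT and at 6.96, 3.94 and 4.56 in Lig4mut (-3.02 ± 0.86, 8.12-fold). Phlpp2, its relative, had the opposite value, 1.39 ± 0.72, with overlapping arrays. Ppp2r1a, the scaffold of protein phosphatase PP2A, differed by -0.44 ± 0.14 and lay below WT on all Lig4mut arrays, and Inpp5b by -1.86 ± 0.92.

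Of 13 genes of the mTOR complexes, Telo2, which helps assemble them, was higher at an unadjusted p under 0.05 (0.78 ± 0.24, or 0.26 when its 3 probe sets were averaged). Rptor, the subunit that defines mTORC1, differed by -1.13 ± 0.60, or -0.21 averaged over its 3 probe sets, and Akt1s1 by 0.36 ± 0.15, or 0.21 over 3. The inhibitor gene Deptor differed by 0.23 ± 0.15 on its brightest probe set, but the average over its 6 was -0.28. In the amino acid branch, 2 of 25 were higher and 2 lower at that level, and these were 4 genes of the Rag and GATOR machinery. The Rag GTPase genes Rraga and Rragc differed by -0.998 ± 0.32 and -0.48 ± 0.17, while Rragd differed by 0.53 ± 0.19 and Wdr24 by 1.02 ± 0.36. With arrays centred on their medians, Rraga was at -0.73, Rragc at -0.21, Rragd at 0.52 and Wdr24 at 1.25. The Rag genes were thus not of 1 direction.

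Among 18 outputs of mTORC1, Tfeb, the transcription factor of lysosome genes that mTORC1 holds in the cytoplasm, was at 7.03, 6.83 and 6.94 in WT and at 8.17, 7.88 and 8.01 in Lig4mut. It separated the genotypes by 1.08 ± 0.13, or 2.12-fold (limma, adjusted p = 0.118), and by 0.86 in the values as deposited. Rps6kb2, an S6 kinase gene, differed by -1.07 ± 0.47, Eif4b by -0.45 ± 0.22 and Srebf2 by -0.88 ± 0.37, but by 0.14 when the 2 probe sets of Srebf2 were averaged. With arrays centred on their medians, Rps6kb2 was at -0.90, Eif4b at -0.11 and Srebf2 at -0.53. In the Stk11 and AMPK list, 2 of 23 were higher and 1 lower at an unadjusted p under 0.05. The lower gene was Cab39, which encodes the scaffold MO25 that activates LKB1 (-0.66 ± 0.19, or -0.21 when its 2 probe sets were averaged). Cab39l differed by 0.70 ± 0.30, or 0.31 averaged over its 4 probe sets, of which 2 had the opposite sign. Mark1 differed by 0.42 ± 0.15, or 0.14 averaged over its 5, and by 0.097 in the values as deposited. Prkag3, with 1 probe set, differed by 1.10 ± 0.39, and by 0.81 in the values as deposited.

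Regulators and partners of Foxo gave 3 of 24 lower and 1 higher at an unadjusted p under 0.05. Sirt1, a deacetylase of Foxo proteins, was at 8.09, 8.33 and 7.85 in WT and at 3.24, 6.53 and 3.00 in Lig4mut (-3.83 ± 1.03, or -3.66 with arrays centred on their medians). Lig4mut replicate 3 was at the floor, so its value there is only a bound. Crebbp, an acetyltransferase and coactivator, was at 11.33, 11.44 and 11.23 in WT and at 10.35, 10.42 and 9.87 in Lig4mut. Its difference was -1.12 ± 0.19 or -0.45 averaged over its 4 probe sets, where 1 had the opposite sign. Kat2b, another acetyltransferase, differed by -1.41 ± 0.39, with all 3 of its probe sets lower, and Sfn, a 14-3-3 protein gene, by 0.72 ± 0.18.

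Of 39 genes known as Foxo targets, 18 had higher and 21 lower values, with a median of -0.012, and at an unadjusted p under 0.05 there were 2 higher and 3 lower. Bnip3, which promotes removal of mitochondria, was at 8.92, 8.73 and 8.96 in WT and at 6.10, 7.41 and 5.90 in Lig4mut (-2.40 ± 0.44, 5.28-fold). The pocket protein gene Rbl2 differed by -1.70 ± 0.33, the stress gene Gadd45a by 2.60 ± 0.67 and the interleukin-7 receptor gene Il7r, near the floor, by 0.79 ± 0.23. Bnip3 and Rbl2 lay below WT on every Lig4mut array and Gadd45a above it, so targets had values in both directions.

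**Figure D5:**
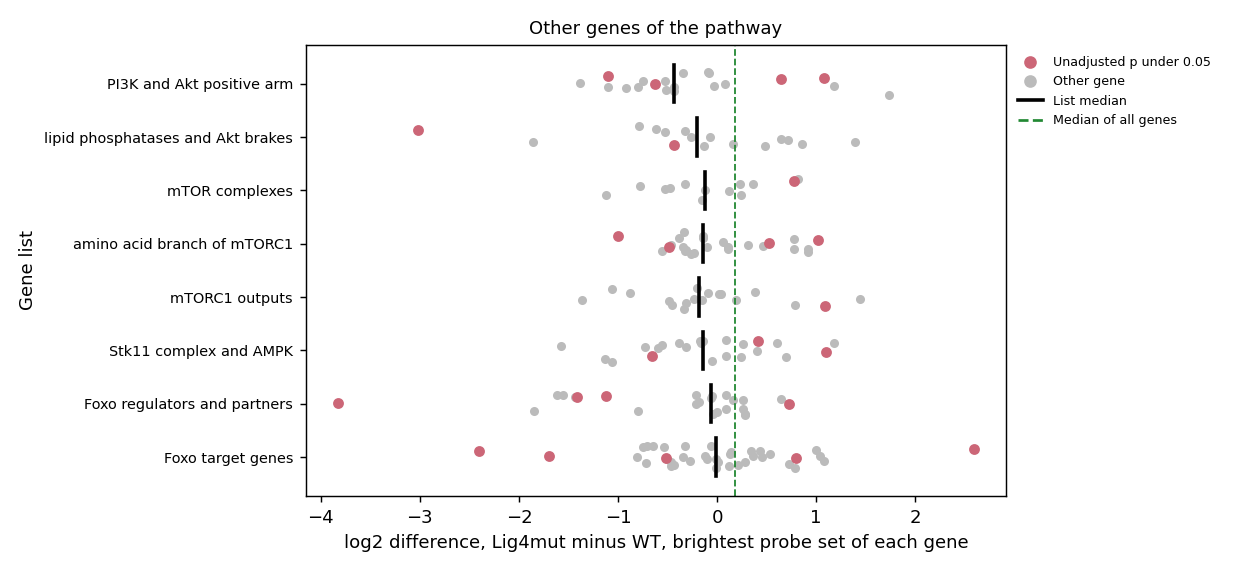
Difference between Lig4mut and WT (log2, horizontal axis) of each gene in the 8 pathway lists (rows), on the probe set with the highest mean level. Red points have an unadjusted p under 0.05, black bars are list medians and the dashed line is the median of all genes at 0.18. The list medians lie between -0.44 and -0.012, and red points stand on both sides of the dashed line in most lists.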

How the data were processed

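The authors deposited log2 values for each probe set, from RMA (no version) according to the submitters' processing notes. The lowest value is 3 on every array. Array distributions differed, so the 45037 non-control probe sets were quantile normalized across the 6 arrays. Names came from GEO's platform annotation, with symbols updated through RefSeq's mouse gene table. Those naming 1 gene entered a two-sided limma 3.58.1 fit (R 4.3.3, lmFit and eBayes), with no filter, Benjamini-Hochberg adjustment and a threshold of 0.05. The test was tried on simulated data. Arrays have no read depth, so their number sets the precision. An exact permutation test of 3 against 3 arrays cannot go below 0.1 and was not run.

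The members and lists were chosen with earlier results of these data known. The text names every member gene, the 4 genes of each list with the smallest p, and the 3 genes nearest in profile to each of the 3 members with the smallest p, leaving out predicted genes. Alternatives were the values as deposited, median centring, cyclic loess, the replicate number as a block, dim probe sets left out, a variance trend, 1 probe set per gene, an average over all probe sets of a gene and leaving out each array. P-values measure the spread between these samples only.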

Additional observations from a re-analysis of the deposited data

How the results depend on the processing

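Under all 13 alternatives that fit single probe sets, 0 member probe sets passed the adjusted threshold (limma). At an unadjusted p under 0.05, the count of probe sets higher in Lig4mut, 4, was 2 in the values as deposited, 2 with cyclic loess, 2 with dim probe sets left out and 0 with 1 probe set per gene, and between 3 and 5 without 1 array. It was 6 with arrays centred on their medians, where Inpp5d 1424195_a_at and Akt1 1416657_at were added. The count of lower ones, 2 of Foxo3, was 1 in the values as deposited, 0 with arrays centred on their medians, 0 with cyclic loess, 0 with dim probe sets left out, 1 with a variance trend and 0 with 1 probe set per gene. Without 1 array it was 0 to 2, namely 0 without WT replicate 1 and 1 without WT replicate 2. Foxo3 1434831_a_at was among them only without Lig4mut replicate 2, and another gene was the second one without WT replicate 3 or Lig4mut replicate 1 (Stk11 1418644_a_at) and without Lig4mut replicate 3 (Akt1 1425711_a_at). In the fit with dim probe sets left out 21 members remained, and in that with 1 probe set per gene 9 did. Of the 24 single differences, 12 kept their sign under every alternative they were computed in. None of the reversals had an unadjusted p under 0.05 in either fit. Foxo3 1450236_at was at 0.27 with median centring and 0.029 with cyclic loess, and from -0.21 to 0.13 without 1 array. Foxo4 1456753_at was at 0.22 with median centring, 0.0086 with cyclic loess and 0.11 averaged over probe sets, and from -0.67 to 0.73 without 1 array. Mtor 1417592_at was at 0.10 with median centring and 0.16 averaged over probe sets, where Akt1 1416657_at was at -0.061 and Stk11 1418644_a_at at 0.14. Ranges without 1 array that crossed 0 were -0.57 to 0.014 for Foxo1 1416981_at, -0.066 to 0.50 for Foxo4 1422149_at, -1.14 to 0.32 for Tsc1 1439989_at, -0.94 to 0.23 for Tsc2 1452105_a_at, -0.080 to 0.51 for Akt1 1442759_at, -0.355 to 0.16 for Akt1 1440950_at and -0.47 to 0.23 for Mtor 1446185_at. The cause was not tested, apart from the fewer arrays or probe sets used. Deviations of same-numbered arrays from their group means were hardly correlated across probe sets (r = 0.043, 0.007 and -0.031). This check cannot exclude that the numbers pair arrays, and the labels used here do not say whether they do. With the replicate block the counts at an unadjusted p under 0.05 were 3 higher and 2 lower, with Foxo1 1416982_at in place of Foxo3 1434831_a_at among the lower, and 0 past the adjusted threshold.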

Other observations

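The probe set left out because it names Foxo3 and the predicted gene Gm38485, 1444226_at, was deposited at 6.32, 6.42 and 5.82 (log2) for WT replicates 1, 2 and 3, and at 6.59, 5.33 and 5.02 for those of Lig4mut. Lig4mut replicate 1 was the highest of the 6 arrays and the other 2 the lowest, so the genotypes overlapped.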
